A study of Mustela putorius furo with 10 samples.

Results

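ARG2, mitochondrial arginase, had a higher array ratio in the blood mononuclear cells of every cold-acclimatised ferret than in those of every control ferret. It was the only member found of a 10-gene arginine and polyamine list to do so, as did 3.08% of all genes tested. The mean difference was 1.10 on the log2 scale of the ratio. In the signal of the ferret's own RNA alone, the ARG2 values of cold and control arrays overlapped narrowly. The list holds ARG1, ARG2, NOS2, ODC1, SAT1, OAT, AZIN1, SLC7A1, SLC7A2 and SRM. Its symbols were matched to the array through the RefSeq ferret gene name of the sequence each probe was designed on, and a member counted as found where at least 1 of its probes gave a signal well above background on at least 4 of the 10 arrays. Of the 10 listed genes, 5 matched a target sequence (ARG1, ARG2, NOS2, SAT1 and SLC7A1) and 4 were found, ARG1 being the exception, out of 26303 genes tested. ODC1, OAT, AZIN1, SLC7A2 and SRM were not analysed here. The list was drawn up with results of these same samples known. ARG2 was chosen by its cold vs control difference in these arrays, so its values are a description and have no test, whereas the other members were selected on whether their Cy3 signal was well above background.

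Arginine is shared by competing enzymes. The arginases ARG1, in the cytosol, and ARG2, in mitochondria, split it into urea and ornithine, whereas the inducible nitric oxide synthase NOS2 turns it into citrulline and nitric oxide. Ornithine feeds the polyamines putrescine, spermidine and spermine through ornithine decarboxylase ODC1 and the spermidine synthase SRM, or is turned towards glutamate and proline by the aminotransferase OAT. AZIN1 protects ODC1 from its antizymes, SAT1 acetylates spermidine and spermine for breakdown or export, and SLC7A1 and SLC7A2 carry arginine into the cell. In blood, arginases and NOS2 are best known from myeloid cells, where the use of arginine bears on T cell proliferation.

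The samples were peripheral blood mononuclear cells (PBMC), isolated on a Ficoll gradient from the heart blood of male ferrets of 3 months. The control group (6 ferrets) was kept at 22 °C and the cold group (4 ferrets) was acclimatised to 4 °C for 1 week. The methods give individual housing in their words on the cold group, and whether this also covers the control group is not clear. Not every ferret of either group was put on an array, fewer of the cold than of the control group. For the cold group the methods name difficulty in obtaining PBMC from some animals. Temperature, which animals gave an array and, if it differed, housing cannot be told apart. All ferrets were anaesthetised with ketamine and medetomidine before the blood was taken. Each ferret had 1 custom Agilent array with 2 colours. Cy3 labelled the RNA of the ferret and Cy5 labelled a reference pool common to all arrays, of PBMC mixed with other tissues. The log2 ratio of Cy3 to Cy5 therefore reads a ferret against the same pool, and log2 Cy3 intensity reads the ferret's RNA alone. A share of 50.4 to 63.5% of the spots was well above background in Cy3 in the control arrays and of 58.0 to 61.1% in the cold arrays. In Cy5 the shares were 27.0 to 54.9% and 40.5 to 64.0%. Defining markers of the labelled cells were measured: CD3D and CD3E of T cells, CD79A and CD79B of B cells and CD14 of monocytes were all above background. In a bulk preparation of this kind, fewer cells of a type and less RNA per cell cannot be told apart.

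The 2 arginases differed in whether they were seen at all. All 4 ARG2 probes were well above background in Cy3 on all 10 arrays, in 80 of 80 spots, with probe intensities of 276 to 3364. The 4 ARG1 probes were well above background in 2 of 80 spots, 1 on a control array and 1 on a cold array, and their intensities lay between 93.3 and 177. ARG1 was therefore not well above background in either group, and no change is given for it. It stayed under the 4 arrays asked for, with 2 arrays, and the member nearest above them was NOS2 with 7 arrays, of which 4 were control and 3 were cold.

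In the ratio, ARG2 stood in the control arrays at a lowest value of 0.26, a median of 0.48 and a highest value of 0.75 on the log2 scale. In the cold arrays it stood at 1.75, 1.03, 2.40 and 1.19 for replicates 1 to 4. Every cold array was above every control array, with the lowest cold array (replicate 2) 1.03 against the highest control array (replicate 5) 0.75. The control mean was 0.49 ± 0.18 (SD, n = 6), against 1.59 ± 0.62 (SD, n = 4) after cold, a difference of 1.10 or 2.15-fold. Over all genes tested, 3.08% had every cold ratio above every control ratio, and the median change was -0.01. The cold arrays also spread more widely than the control arrays, replicate 3 being the highest. Without that ferret the ARG2 difference was 0.83, and leaving out any other array gave between 1.05 and 1.29.

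Cy3 alone showed the same order of groups with a narrow overlap. The ARG2 log2 intensity ran in the control arrays from 8.17, through a median of 9.05, to 9.57. It was 9.73, 10.18, 10.93 and 9.54 in cold replicates 1 to 4. Cold replicate 4 at 9.54 thus lay just under control replicate 1 at 9.57, and the remaining cold arrays lay above all control arrays. The control mean of 8.95 ± 0.49 (SD, n = 6) stood against 10.09 ± 0.62 (SD, n = 4) after cold, a difference of 1.15 or 2.22-fold, beside a median change over all genes of -0.04. The normalised log2 Cy5 intensity of ARG2, which reads the pool, was 6.27 in control and 6.43 in cold arrays, a difference of 0.17. As spot intensity before normalisation, the mean ARG2 Cy3 signal ran from 392 to 730 in the control arrays and from 738 to 2413 in the cold arrays.

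**Figure D1:**
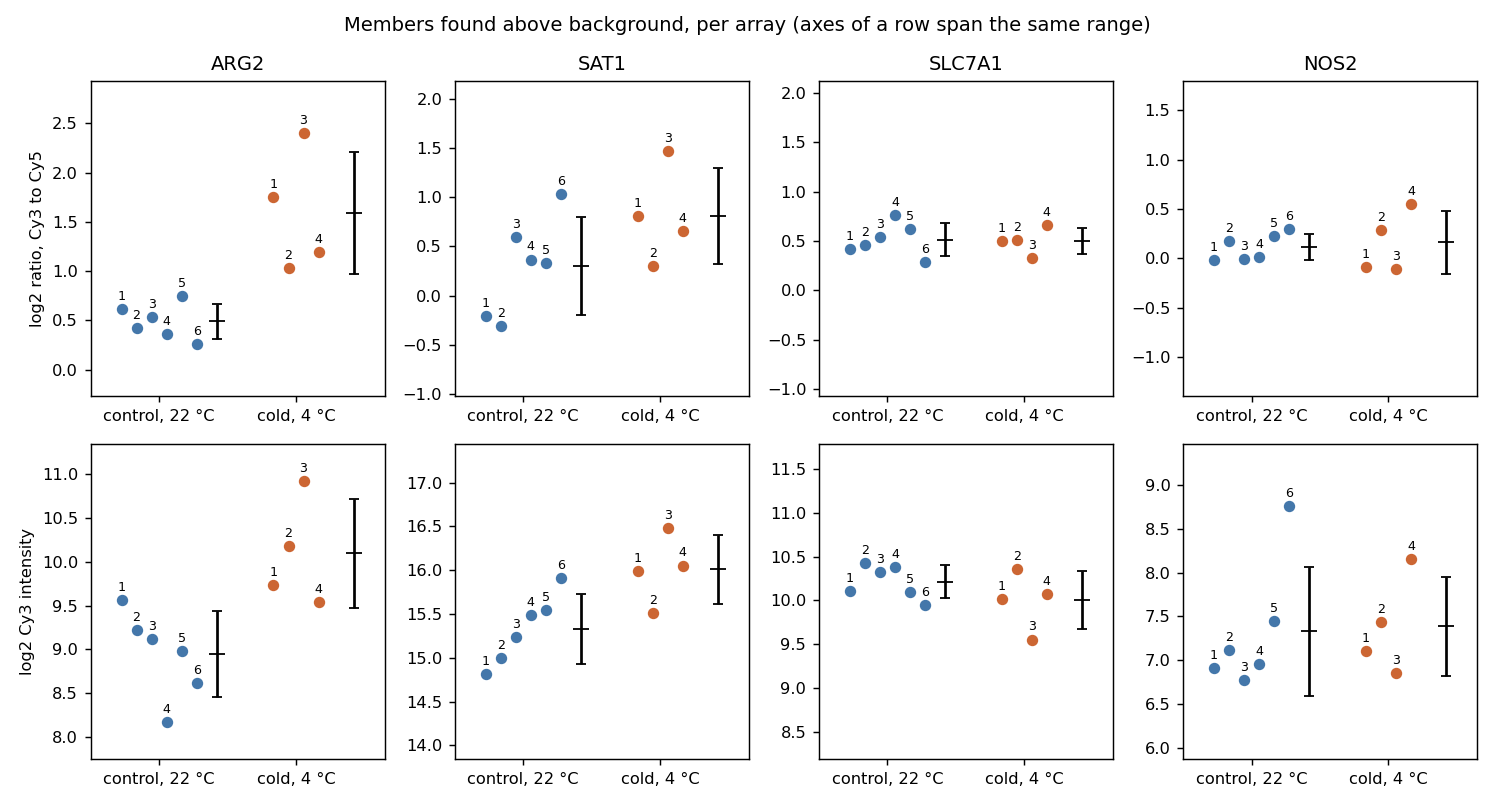
Log2 ratio of Cy3 to Cy5 (top) and log2 Cy3 intensity (bottom) of the 4 members found, each point 1 array with its replicate number, with the mean and SD of the group beside the points. The 4 cold arrays of ARG2 sit at 1.03 to 2.40 in the ratio, above all 6 control arrays (0.26 to 0.75), whereas the groups overlap for SAT1, SLC7A1 and NOS2.

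The 4 ARG2 probes, which read 1 target sequence and so are not replicates of the condition, moved alike. Their ratio differences were 1.01, 1.20, 1.19 and 1.00 on the log2 scale, and their differences in Cy3 alone were 1.18, 1.14, 1.16 and 1.12. Probes 1, 2 and 4 had no overlap between the groups in the ratio, whereas probe 3 did, with a highest control array of 1.04 and a lowest cold array of 0.86. The denominator of these ratios was dim. In Cy5 the ARG2 probes were well above background on 5, 3, 3 and 2 of the 10 arrays, most of them cold arrays. From array to array the ARG2 ratio did not follow Cy3 alone. Cold replicate 2 had the lowest cold ratio (1.03) at a log2 Cy3 of 10.18, and cold replicate 1 had a ratio of 1.75 at 9.73. Before normalisation, the mean ARG2 Cy5 spot intensity was 48.6 in control and 95.2 in cold arrays. The median Cy5 spot intensity of a whole array was 44 to 80 in control and 48 to 152 in cold arrays, and the part of this shift in the ratio was not tested.

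**Figure D2:**
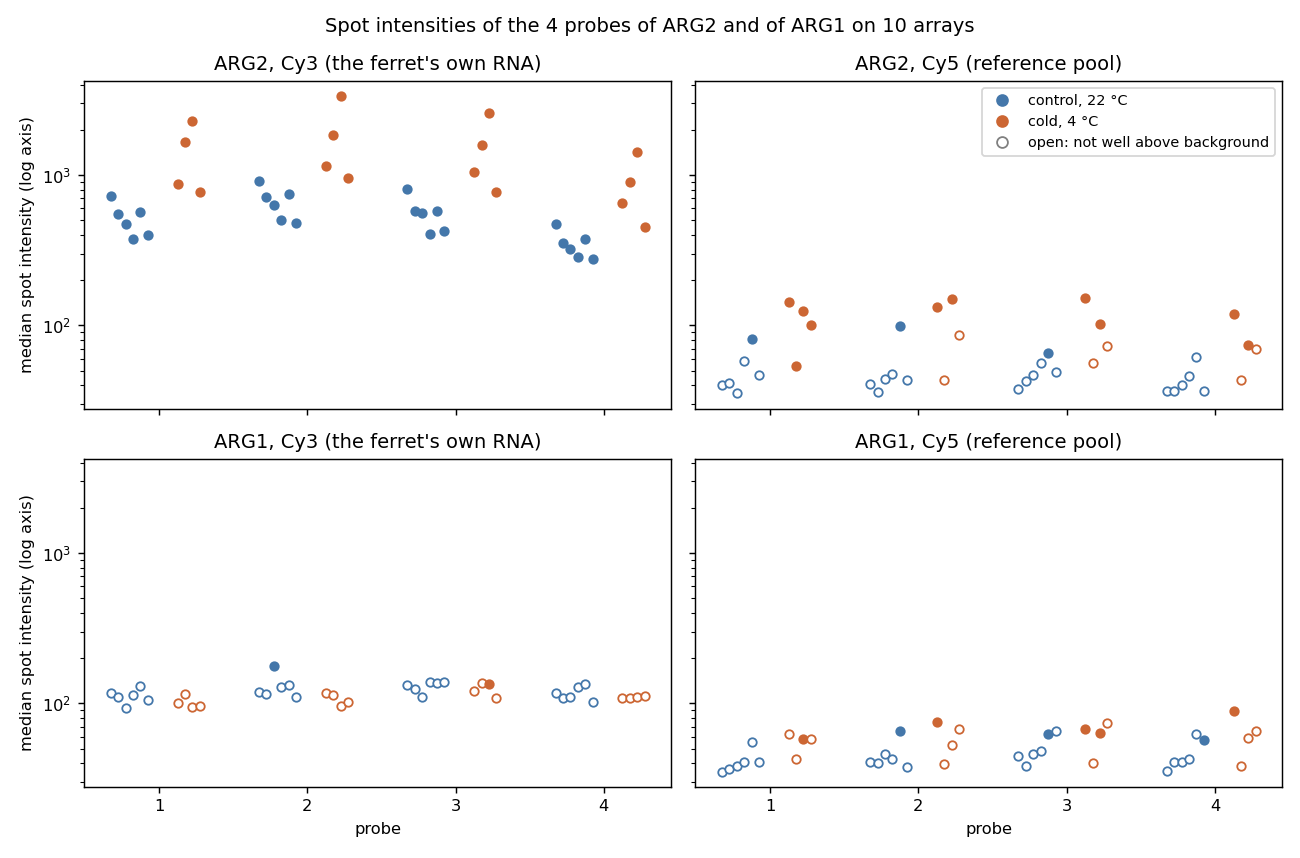
Median spot intensity (log axis) of the 4 probes of ARG2 (top) and the 4 probes of ARG1 (bottom) in Cy3 (left) and Cy5 (right), each point 1 array, blue for control and orange for cold, open where under a share of 0.5 of the spots was well above background. All ARG2 points are filled in Cy3, from 276 to 3364, and nearly all ARG1 points are open, between 93.3 and 177.

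SAT1, the spermidine and spermine acetyltransferase at the entry to polyamine breakdown, was well above background in 80 of 80 spots. Its log2 ratio in the control arrays had a lowest value of -0.31, a median of 0.35 and a highest value of 1.03. The cold arrays stood at 0.81, 0.31, 1.47 and 0.66 for replicates 1 to 4. The groups overlapped, since control replicate 6 lay above cold replicates 1, 2 and 4. The means were 0.30 ± 0.50 (SD, n = 6) and 0.81 ± 0.49 (SD, n = 4), and the difference of 0.51 had a 95% interval of -0.10 to 1.12 (limma unadjusted p = 0.0938, adjusted p = 0.276 over all genes; exact permutation p = 0.148, two-sided). SAT1 was thus not called in the ratio, and leaving out cold replicate 3 lowered the difference to 0.29 (limma unadjusted p = 0.309). With each array centred on its median in place of loess, the sign turned, to -0.58, where the median over all genes was itself at -0.43, and in the authors' deposited table the SAT1 difference was 0.0026 (limma unadjusted p = 0.994).

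In Cy3 alone SAT1 lay closer to the threshold. Its log2 intensity ran from 14.81 through a median of 15.36 to 15.92 in the control arrays and was 15.99, 15.52, 16.48 and 16.05 in the cold arrays. Cold replicate 2 was the only cold array within the control range. The difference of 0.68, from 15.33 ± 0.40 (SD, n = 6) to 16.01 ± 0.40 (SD, n = 4), had a 95% interval of 0.19 to 1.17 (limma unadjusted p = 0.0111, adjusted p = 0.106; exact permutation p = 0.0286, two-sided). It passed the unadjusted threshold of 0.01 on leaving out control replicate 6 (0.80, limma unadjusted p = 0.00247, adjusted p = 0.0464) or cold replicate 2 (0.84, limma unadjusted p = 0.00356, adjusted p = 0.0931), and with arrays scaled on the 75th percentile (0.74, limma unadjusted p = 0.00576, adjusted p = 0.0760). With the replicate block it was 0.88 (limma unadjusted p = 0.000703, adjusted p = 0.0232). Without cold replicate 3 it was 0.52 (limma unadjusted p = 0.0439). SAT1 was bright in the reference too, and its normalised log2 Cy5 intensity was 11.38 in control and 11.59 in cold arrays, a difference of 0.21.

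SLC7A1, the main cationic amino acid transporter of most cells and an entry route for arginine, was not called on either scale. Its probes were well above background in 80 of 80 spots. The log2 ratio ran from 0.28 through 0.50 to 0.76 in the control arrays and was 0.50, 0.51, 0.33 and 0.66 in the cold arrays, so that every cold array lay within the control range. The difference was -0.01, with a 95% interval of -0.24 to 0.21 (limma unadjusted p = 0.891; exact permutation p = 0.886, two-sided). Other scalings gave values below that interval, -0.64 with median centring, -0.39 with the processed signals of the scanner software and -0.29 in the deposited table, and none of them was called. In Cy3 alone the mean went from 10.21 ± 0.19 (SD, n = 6) at 22 °C to 10.00 ± 0.33 (SD, n = 4) at 4 °C, a difference of -0.21 with an interval of -0.54 to 0.12 (limma unadjusted p = 0.183; exact permutation p = 0.224, two-sided). Leaving out cold replicate 3 gave -0.06, and leaving out cold replicate 2 gave -0.33 (limma unadjusted p = 0.0483).

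NOS2, which uses the same arginine as the arginases, was dim, with 59 of 120 spots well above background and 3 of its 4 probes kept. Its log2 ratio in the control arrays ran from -0.02 through 0.09 to 0.29, and the cold arrays stood at -0.08, 0.28, -0.11 and 0.55. Cold arrays lay on both sides of the control range, and the difference of 0.05 had a 95% interval of -0.25 to 0.34 (limma unadjusted p = 0.734; exact permutation p = 0.781, two-sided). The ratio difference was 0.54 in the deposited table and 0.22 with median centring, and neither was called. In Cy3 alone the control arrays ran from 6.78 through 7.04 to 8.75 and the cold arrays were 7.11, 7.43, 6.85 and 8.15. Control replicate 6 and cold replicate 4 were the high arrays of their groups. The Cy3 difference of 0.06 had an interval of -0.75 to 0.87 (limma unadjusted p = 0.878; exact permutation p = 0.895, two-sided), which is wide enough to hold a change of more than 0.5 in either direction. It was 0.34 without control replicate 6 and -0.20 without cold replicate 4.

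Of the 3 members found besides ARG2, 0 passed the unadjusted threshold of 0.01 in the ratio with limma, a threshold that 8.64% of all genes passed, and 0 passed it in Cy3 alone, where 9.85% did. At an unadjusted p under 0.05 the counts were 0 of 3 in the ratio and 1 of 3 in Cy3 alone (SAT1), beside 24.7% and 24.8% of all genes, and the methods' t-test also called 0 of 3 at 0.01 in both. After Benjamini-Hochberg adjustment over all genes, 0 genes passed 0.05 in the ratio with limma or with the methods' t-test. In Cy3 alone 2.81% of all genes passed 0.05 after adjustment, and 0 of the 3 members did.

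Beyond the members, 69 further genes of arginine and polyamine metabolism were listed by role. Of these, 38 were on the array under their symbol and 29 were well above background. In the ratio 12 of the 29 were higher and 17 lower in cold ferrets, with a median change of -0.03, beside -0.01 over all genes. At an unadjusted limma p under 0.01, 2 were higher (SLC7A7 and SLC22A16), where 5.21% of all genes were, and 0 were lower, where 3.43% were. Leaving out 1 array at a time gave 0 to 2 higher and 0 to 3 lower genes, with 0 higher without cold replicate 1 or 3, 1 higher without control replicate 1 or 6, and 3 lower without control replicate 5. In Cy3 alone 16 were higher and 13 lower with a median of 0.02, and 2 were higher at 0.01 (GCHFR and GLUL), where 5.49% of all genes were, and 0 were lower, where 4.36% were. With 1 array left out, 0 to 2 genes were higher and 0 to 1 lower in Cy3 alone, with 0 higher without control replicate 4 or cold replicate 3. No gene of the wider list was called on both scales, and the sign of the change differed between the scales for 6 of the 29.

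Among 8 listed genes of arginine and cationic amino acid transport, 6 were measured. SLC7A7, the light chain that with SLC3A2 exports cationic amino acids in exchange for neutral ones, stood in the ratio at 0.37 to 0.79 with a median of 0.63 in the control arrays. In the cold arrays it stood at 1.17, 0.99, 1.51 and 0.74. Only cold replicate 4 lay within the control range, and the difference of 0.51 ± 0.14 (SE) had an unadjusted limma p of 0.00453 and an adjusted p of 0.0934. In Cy3 alone the difference was 0.52 (limma unadjusted p = 0.0132). The SLC7A7 ratio difference was 0.21 with median centring (limma unadjusted p = 0.329), 0.59 in the deposited table (limma unadjusted p = 0.0205) and 0.79 with processed signals (limma unadjusted p = 0.00720). It was 0.80 with the filter on all 10 arrays, and the call was lost with the methods' t-test and with the replicate block (limma unadjusted p = 0.0106). Its heavy chain SLC3A2 differed by 0.14 in the ratio (limma unadjusted p = 0.345).

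The urea cycle and arginine recycling had 2 measured genes of 9 listed, and neither was called. ASS1, which makes argininosuccinate from citrulline and so starts the rebuilding of arginine, stood in the ratio between -2.12 and -0.92 with a median of -1.17 in the control arrays and at -2.72, -1.44, -2.28 and -1.79 in the cold arrays. The ratio difference of -0.69 had an unadjusted limma p of 0.0432, whereas in Cy3 alone the difference was -0.04 (limma unadjusted p = 0.802). The ratio difference was -0.26 with processed signals (limma unadjusted p = 0.340) and -0.37 in the deposited table (limma unadjusted p = 0.128). The ASS1 ratio was below 0 on all 10 arrays. CPS1, which makes carbamoyl phosphate for the urea cycle, differed by -0.06 in the ratio (limma unadjusted p = 0.619) and by -0.32 in Cy3 alone (limma unadjusted p = 0.0166).

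Nitric oxide synthesis and its cofactor had 4 measured genes of 12 listed. GCHFR, the feedback regulator of the first enzyme of tetrahydrobiopterin synthesis, the cofactor of nitric oxide synthases, ran in Cy3 alone from 9.36 through 9.50 to 9.73 in the control arrays. In the cold arrays it was 9.71, 9.78, 10.33 and 9.96. Cold replicate 1 alone lay within the control range, and the difference was 0.42 ± 0.13 (SE), with an unadjusted limma p of 0.00893 and an adjusted p of 0.0970. That p was over 0.01 with 75th percentile scaling (0.0129), with the methods' t-test, with the replicate block and on leaving out control replicate 1, 4, 5 or 6 or cold replicate 3 or 4, the difference falling to 0.29 without cold replicate 3. In the ratio GCHFR differed by 0.09 (limma unadjusted p = 0.653), by 0.38 with processed signals (limma unadjusted p = 0.0654) and by -0.42 with median centring. SPR and QDPR, which make and recycle the same cofactor, had ratio differences of -0.63 and -0.45 and were not called (limma unadjusted p = 0.0403 and 0.0126). In Cy3 alone they differed by -0.09 and -0.30 (limma unadjusted p = 0.515 and 0.0994).

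Ornithine, proline and glutamate had 4 measured genes of 9 listed. GLUL, glutamine synthetase, ran in Cy3 alone from 11.66 through 11.82 to 12.02 in the control arrays and was 12.08, 12.49, 13.18 and 12.09 in the cold arrays. The cold arrays all exceeded the control arrays, as held in Cy3 for 3.57% of all genes, although replicates 1 and 4 cleared the control range by little. The GLUL difference was 0.64 ± 0.20 (SE), with an unadjusted limma p of 0.00743 and an adjusted p of 0.0894. Without cold replicate 3 it was 0.39 (limma unadjusted p = 0.0112), and the call was also lost with processed signals (limma unadjusted p = 0.0115), with the methods' t-test, with the replicate block and without control replicate 2, 3, 4, 5 or 6 or cold replicate 2. In the ratio the groups overlapped and the difference was 0.38 (limma unadjusted p = 0.129), or 0.16 without cold replicate 3, and its sign turned with median centring, to -0.55.

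Polyamine synthesis and methylthioadenosine salvage had 5 measured genes of 10 listed, with ratio differences between -0.22 and 0.03 and 0 calls on either scale. AMD1, the decarboxylase that makes the aminopropyl donor for spermidine and spermine, differed by 0.03 in the ratio (limma unadjusted p = 0.674) and by 0.16 in Cy3 alone (limma unadjusted p = 0.179). MAT2A, which makes S-adenosylmethionine upstream of AMD1, had the lowest p of the group in the ratio, with a difference of -0.22 (limma unadjusted p = 0.129). It was -1.13 with median centring (limma unadjusted p = 0.0332) and -0.63 in the deposited table (limma unadjusted p = 0.0525). At an unadjusted limma p under 0.05 the count was 0 of 5 in the ratio and 1 of 5 in Cy3 alone (ADI1, 0.16), beside 24.7% and 24.8% of all genes.

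In polyamine breakdown, 2 of 4 listed genes were measured besides SAT1. SMOX, spermine oxidase, differed by 0.44 in the ratio (limma unadjusted p = 0.0708) and by 0.54 in Cy3 alone (limma unadjusted p = 0.207). SAT2, a relative of SAT1, stood in the ratio between -0.73 and -0.19 with a median of -0.29 in the control arrays and at -1.11, -0.55, -0.85 and -0.76 in the cold arrays. Its difference of -0.43 just missed the threshold of 0.01 (limma unadjusted p = 0.0102), and in Cy3 alone it was 0.02 (limma unadjusted p = 0.864). The ratio difference passed 0.01 without background subtraction (-0.42, limma unadjusted p = 0.00857), with array weights (-0.49, limma unadjusted p = 0.00414) and on leaving out control replicate 4, control replicate 5 or cold replicate 2. In the deposited table it had the opposite sign, 0.17, and no SAT2 probe met the background filter on all 10 arrays.

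In polyamine transport, 4 of 5 listed genes were measured. SLC22A16, an organic cation and carnitine transporter that can also carry polyamine-like compounds, stood in the ratio between -0.08 and 0.31 with a median of 0.14 in the control arrays. In the cold arrays it stood at 0.93, 0.19, 0.98 and 0.59, with cold replicate 2 alone inside the control range. The difference of 0.54 ± 0.15 (SE) had an unadjusted limma p of 0.00405 and an adjusted p of 0.0912, and in Cy3 alone it was 0.67 (limma unadjusted p = 0.0174). The ratio difference was larger in other scalings, 1.78 with processed signals and, past 0.01 in neither case, 1.13 in the deposited table (limma unadjusted p = 0.0118) and 0.92 with median centring (limma unadjusted p = 0.0149). The methods' t-test also put it just over 0.01. No SLC22A16 probe met the background filter on all 10 arrays. ATP13A2, the lysosomal polyamine exporter, differed by 0.16 in the ratio (limma unadjusted p = 0.174) and by -0.02 in Cy3 alone (limma unadjusted p = 0.889).

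The hypusine pathway, in which spermidine is used to modify the translation factor EIF5A, had 2 measured genes of 4 listed. EIF5A2, the less common form of that factor, differed by -0.24 in the ratio (limma unadjusted p = 0.0473), and DHPS, the enzyme of the first hypusine step, by -0.12 (limma unadjusted p = 0.239). In Cy3 alone EIF5A2 differed by -0.10 (limma unadjusted p = 0.702) and DHPS by -0.24 (limma unadjusted p = 0.0978). The further EIF5A2 values here are ratios. The EIF5A2 difference was -0.67 with processed signals (limma unadjusted p = 0.0221) and -0.49 with median centring (limma unadjusted p = 0.0903). It passed 0.01 without cold replicate 3 (-0.35, limma unadjusted p = 0.00354). Of the creatine and agmatine genes, 1 of 4 was on the array and 0 were above background, and of the antizyme genes 0 of 4 were matched.

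**Figure D3:**
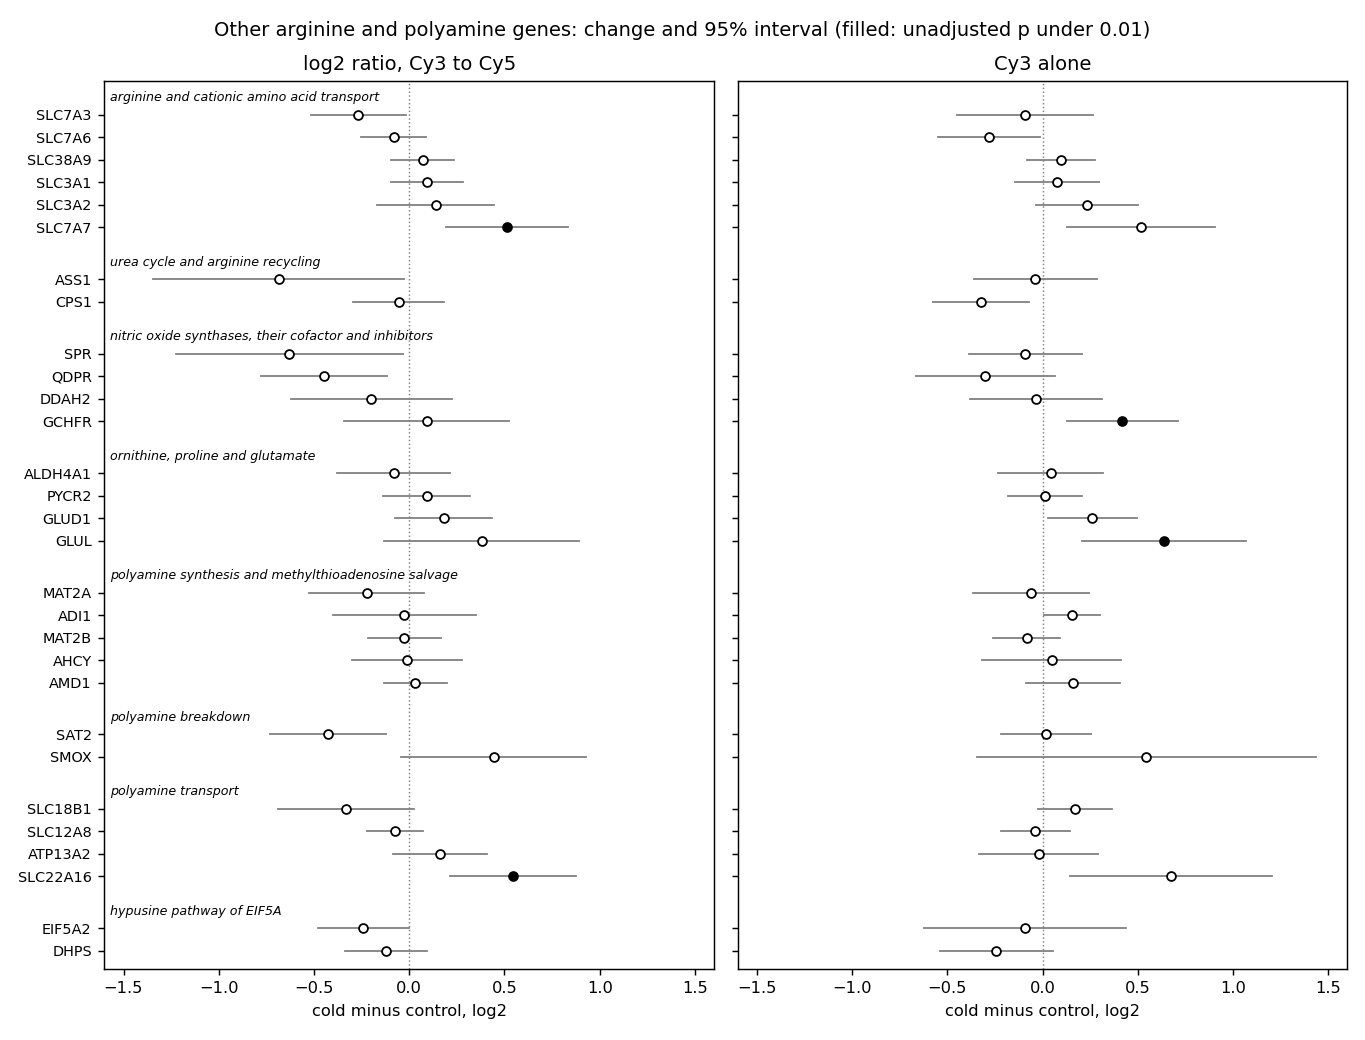
Cold minus control difference (log2) of the 29 measured genes of the wider list, by role, in the ratio (left) and in Cy3 alone (right), with 95% intervals and filled points at an unadjusted limma p under 0.01. SLC7A7 and SLC22A16 are filled in the ratio and GCHFR and GLUL in Cy3 alone.

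Marker lists of blood cells moved between the groups as well, and are given here beside ARG2. The score of a list is the mean log2 ratio of its measured markers on an array. The neutrophil score (9 of 14 markers measured) ran from 0.65 to 1.33 in control and from 1.55 to 1.95 in cold arrays, with 4 markers higher at an unadjusted limma p under 0.01 (S100A8, S100A9, MMP25 and PADI4) and 0 lower, beside 5.21% higher and 3.43% lower over all genes. None of these 4 was called with median centring, where S100A8 and PADI4 turned sign, or in the deposited table, and MMP25 and PADI4 were not called with processed signals. The first listed neutrophil marker measured, CSF3R, differed by 0.40 (limma unadjusted p = 0.252), by 0.18 without cold replicate 3 and by 0.63 without cold replicate 2. The granulocyte precursor score rests on 2 of 6 markers, MPO and CEBPE, which differed by 1.41 and 1.03, and ran from -0.22 to 0.36 in control and from 0.80 to 1.93 in cold arrays. CEBPE was at 0.51 with median centring (limma unadjusted p = 0.130) and 0.69 with processed signals (limma unadjusted p = 0.0153). The monocyte score (7 of 9) ran from 0.01 to 0.48 and from 0.48 to 1.15, and 3 of its markers were higher (CD14, VCAN and CD300E), none of them with processed signals or with median centring, where CD14 turned sign. No monocyte marker was lower at 0.01 in the ratio, where CD163 differed by -0.62 (limma unadjusted p = 0.164). In Cy3 alone CD163 differed by 0.49 (limma unadjusted p = 0.00787). A Ficoll gradient is meant to keep monocytes and remove most mature neutrophils.

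The platelet score (6 of 8) ran from -0.03 to 1.59 in control and from 1.04 to 2.13 in cold arrays, with 3 markers higher (GP9, GP1BB and TREML1) and ITGA2B not called. In Cy3 alone 0 platelet markers were higher at 0.01, and with median centring none of the 3 was called. The erythroid score (4 of 8) ran from 0.18 to 1.12 and from -0.85 to -0.05, with HBM at a difference of -2.56. The T cell score (11 of 12) ran from -0.0017 to 0.30 and from -0.78 to -0.0066, with 1 marker lower in the ratio (LCK, not called with median centring) and 7 lower in Cy3 alone, where 4.36% of all genes were. The B cell score (5 of 8) ran from -0.11 to 1.31 and from 0.35 to 0.82, and the score of NK and cytotoxic cells (4 of 8) from 0.34 to 1.08 and from 0.09 to 1.18. No marker of these last lists was called in the ratio, the first measured of each, CD79A and PRF1, differing by -0.31 and 0.02. CD79A was at -0.13 without cold replicate 3, -0.54 without cold replicate 1 and -1.19 with median centring. No defining marker was at 0, since probe intensities have a background, but PAX5 of the B cell list and KLF1 of the erythroid list were not well above it. Cold replicate 3, which had the highest ARG2 ratio, also had the highest neutrophil and monocyte scores (1.95 and 1.15) and the lowest T cell score (-0.78), as well as the highest platelet score (2.13) and the lowest score of NK and cytotoxic cells (0.09). Its granulocyte precursor score (1.60) was below that of cold replicate 1 (1.93), and the lowest erythroid score was in cold replicate 2 (-0.85). Cold replicate 2 had the lowest cold ARG2 ratio, but its monocyte score (0.95) was above those of cold replicates 1 (0.59) and 4 (0.48). The part of cell makeup in the ARG2 difference was not tested.

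**Figure D4:**
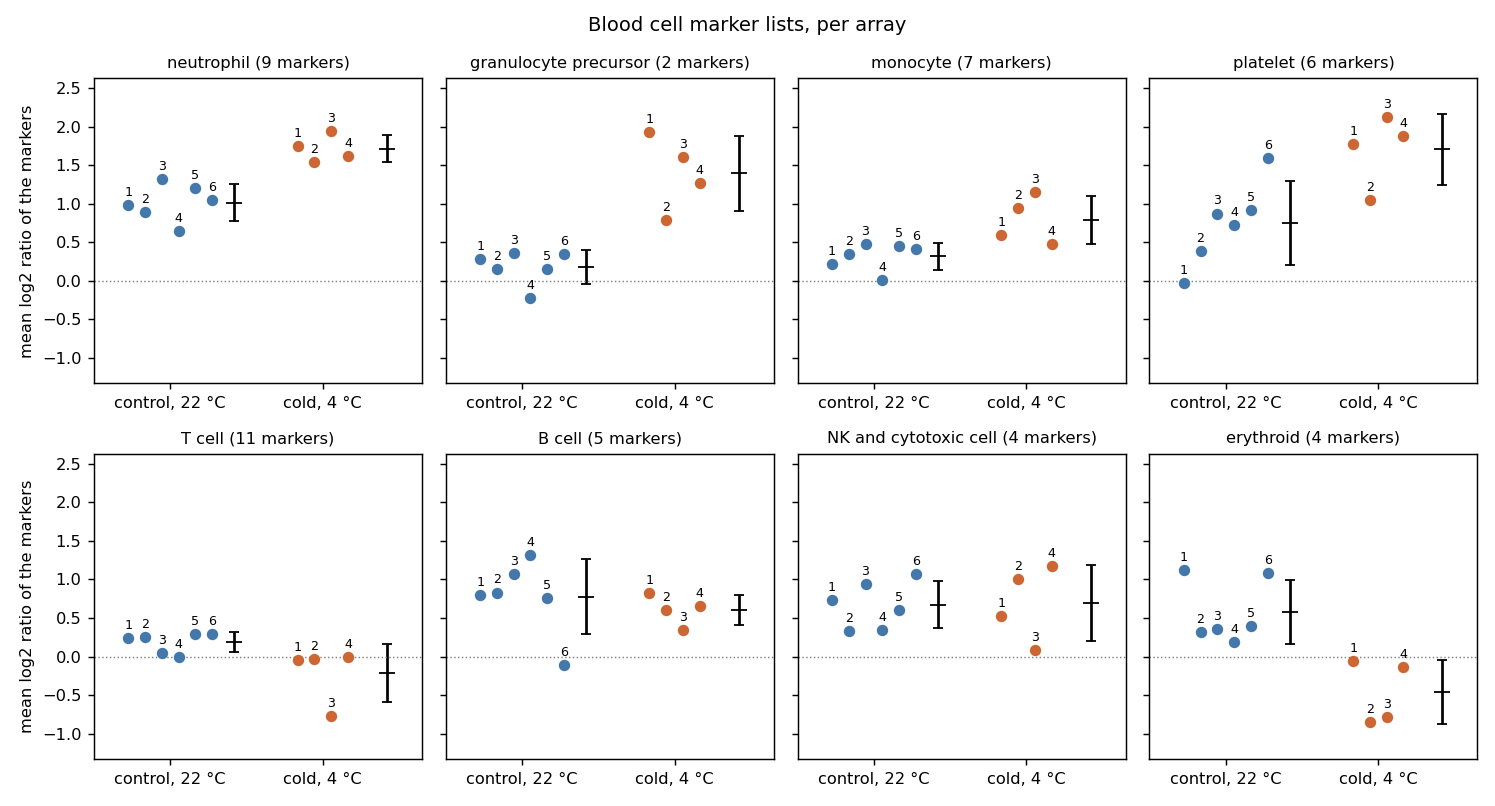
Mean log2 ratio of the measured markers of 8 blood cell lists on each array, each point 1 array with its replicate number, with the mean and SD of the group beside the points. The neutrophil scores of the 4 cold arrays (1.55 to 1.95) lie above those of the 6 control arrays (0.65 to 1.33), and cold replicate 3 is highest for neutrophils, monocytes and platelets and lowest for T cells and for NK and cytotoxic cells.

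The genes whose ratios followed ARG2 most closely from ferret to ferret were found after taking the group mean out of each gene, over the 10 arrays. By Pearson's r of these deviations they were C5AR2, a receptor for the complement fragment C5a (0.97), HEXA, a subunit of lysosomal hexosaminidase (0.97), RNF212, a ligase known from meiosis (0.97), B3GALT2, a galactosyltransferase (0.96), and ABCC10, an efflux transporter (0.96). These are the 5 highest of all named genes and share the arrays and the dim reference with ARG2, so the values describe these 10 arrays. The ARG2 ratio spread more in the cold arrays (SD 0.62, n = 4) than in the control arrays (SD 0.18, n = 6). The values of r therefore lean on the 4 cold arrays, and r without cold replicate 3 is not given. In Cy3 alone r was 0.93 for C5AR2 and 0.90 for RNF212, but 0.65 for B3GALT2, 0.31 for HEXA and -0.17 for ABCC10. C5AR2 differed between cold and control by 0.39 in the ratio (0.24 without cold replicate 3, 0.82 in the deposited table) and by 0.26 in Cy3 alone. For the members, which were left out of that ranking, r in the ratio was 0.43 for SAT1, -0.33 for SLC7A1 and -0.71 for NOS2. The 5 genes above were picked for their high r, so they are no yardstick for the members. In Cy3 alone r was -0.23 for SAT1, of opposite sign to the ratio, -0.39 for SLC7A1 and -0.46 for NOS2.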

How the data were processed

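RNA of PBMC was measured on 10 arrays, 6 control and 4 cold. The authors deposited per array the spot intensities written by Agilent Feature Extraction 10.7.3.1, as median intensity and local background per channel, with flags, and a log2 table with 1 value per target sequence and array, whose normalisation steps are not given in the sources used here. The scanner intensities were the main input, with the median in place of the planned mean, which the files used here do not hold. Background was handled by normexp, offset 50 (limma 3.58.1, R 4.3.3). Ratios were loess normalised within arrays (span 0.3, 4 iterations), and Cy3 alone was quantile normalised between arrays. Spots marked as outliers and 225 spots per array without a target accession were left out. Spots were averaged per probe and probes per gene. Probes needed Cy3 well above background in a share of 0.5 or more of their spots on 4 or more arrays, and 111051 passed. The RefSeq table of assembly ASM1176430v1.1 named 21104 of 45328 target sequences, as 12918 genes, and the rest kept their accession. No coordinates or probe sequences are given.

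The cold vs control difference was fitted by limma (lmFit, eBayes) over all 26303 genes. Calls are given after Benjamini-Hochberg adjustment (0.05) and at an unadjusted p of 0.01, as in the methods. Members other than ARG2 have an exact permutation test over 210 splits, whose smallest p is 0.00476. Members, wider list and cell markers were chosen with earlier results of these data known. Named in the text are all members, genes of the wider list at an unadjusted p under 0.01 on either scale or the lowest p in the ratio of a role without one, the 5 genes most like ARG2, and of each marker list the first measured and those at 0.01. SLC3A2, CPS1, SPR, QDPR, AMD1, ADI1, SMOX, ATP13A2, DHPS, the monocyte marker CD163 and the defining markers CD3E and CD79B were named in addition, after their values were seen. The 10 arrays lay on 10 slides scanned on 1 day, so slide could not be fitted as a block. The number of arrays limits the precision. The script was tested on simulated data. A listed item is not reported here.

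Same-numbered control and cold arrays did not deviate together for every number, so the numbers were not taken to pair them. The correlations of their deviations from the group means were -0.30, 0.54, 0.10 and -0.19 for numbers 1 to 4. These values were set against no reference, so they cannot exclude a pairing. Alternatives changed the background correction, signal column, normalisation, dim-probe filter, probe summary, feature, test, weights, block and arrays, 1 at a time, except that the replicate block also left out control replicates 5 and 6, which have no cold partner, and the deposited table replaces several steps.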

Additional observations from a re-analysis of the deposited data

Results flagged for a closer look

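In 2 of 48 groups of values tested for members and named genes of the wider list, 1 array lay far from the rest of its group. Chance alone does this in about 1 in 20 groups. The log2 Cy3 intensity of NOS2 in control replicate 6 was 8.75, against 7.45 in the next highest control array. The log2 Cy3 intensity of ASS1 in control replicate 1 was 8.09, against 7.52 in the next highest control array.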

How the results depend on the processing

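The ARG2 difference kept its sign under every alternative run. It ran from 0.82 to 1.38 in the ratio and from 1.07 to 1.18 in Cy3 alone over the alternatives with all or the same-numbered arrays, and from 0.83 to 1.29 and 0.87 to 1.33 when 1 array was left out. Of the other members, the number called at an unadjusted p under 0.01 in Cy3 alone was 1 with 75th percentile scaling and 0 to 1 with 1 array left out (SAT1 in each case, without control replicate 6 or cold replicate 2). For the wider list, 0 genes were higher at 0.01 with median centring 0 with the deposited table and 0 with the methods' t-test, 1 was higher with the filter on all 10 arrays, 1 was lower without background subtraction and 1 with the median over probes, 2 were lower with array weights, and 0 to 2 were higher and 0 to 3 lower with 1 array left out (1 lower without control replicate 4 or cold replicate 3, 2 without cold replicate 2). The replicate numbers were not taken to pair the animals. With the replicate block, which also left out control replicates 5 and 6, 1 member was called in the ratio and 1 in Cy3 alone (SAT1, by 0.70 and 0.88, limma adjusted p = 0.0232 in Cy3), and 1 wider gene was higher and 2 were lower. In Cy3 alone 1 wider gene was higher with processed signals, 1 with the methods' t-test and 1 with the replicate block, against 2, and 2 were lower with 75th percentile scaling and 1 with the replicate block, against 0. Leaving out 1 array gave 0 to 2 higher and 0 to 1 lower there. The causes were not tested.

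Signs turned as follows. Median centring, which moved the median of all genes to -0.43, gave -0.58 for SAT1, -0.42 for GCHFR, -0.55 for GLUL, -0.47 for CD3D, -0.999 for PRF1, -0.37 for CD14, -0.48 for CSF3R, -0.013 for S100A8 and -0.069 for PADI4. The deposited table gave -0.0017 for GLUL, 0.17 for SAT2, -0.46 for PRF1 and -0.062 for CSF3R. Processed signals gave -0.49 for CD3D and -0.081 for PRF1. CD3D was at -0.033 without background subtraction and at -0.091 with the median over probes. Array weights gave 0.040 for SLC7A1 and -0.011 for GCHFR, and 75th percentile scaling gave -0.086 for NOS2 in Cy3, which the replicate block put at 0.45 (limma unadjusted p = 0.0488). With 1 array left out, SLC7A1 ran from -0.068 to 0.043, NOS2 from -0.084 to 0.14 (in Cy3 from -0.20 to 0.34), GCHFR from -0.014 to 0.19, CD3D from -0.031 to 0.049 and PRF1 from -0.14 to 0.22. Among genes at 0.01 in the ratio, 60.3% were higher in cold ferrets with loess, 30.2% with processed signals, 18.4% with median centring, 46.2% in the deposited table and 43.7% without control replicate 5. NOS2 had no value with the filter on all 10 arrays. Over all genes, 2273 were at 0.01 in the ratio, but 1449 with processed signals, 1162 with median centring, 1093 in the deposited table, 1425 and 1504 on leaving out control replicate 1 or 2, and 1276 on leaving out cold replicate 3. After adjustment, 0 passed in the ratio, but 115 with the filter on all 10 arrays, 5 with slide position as a block, 633 without control replicate 5, 1267 without cold replicate 2 and 12 without cold replicate 1. In Cy3 alone, 739 genes passed an adjusted p of 0.05, but 0 with the methods' t-test, 0 without the filter on dim probes, 120 with processed signals, 2091 with the replicate block and 0 to 1684 with 1 array left out.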
